A study of Mus musculus with 6 samples.

Results

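Gatm and Ckb are the genes of creatine metabolism that a targeted panel of 456 genes held, 2 of the 9 creatine genes looked for. Both were chosen by name, with their counts in these samples already known, and their values were read from 22154 single mouse kidney cells. The cells came from 6 libraries of C57BL/6 kidney, from mice aged 16 weeks and of the C57BL/6J substrain per the treatment protocol. The vehicle group (libraries 1, 3 and 5) ate a gel diet with 104 µmol sodium per kcal for 1 week. The furosemide group (libraries 2, 4 and 6) ate the same diet with furosemide added at 70 mg per kg body weight. Furosemide is a loop diuretic that inhibits the sodium-potassium-chloride cotransporter NKCC2 (Slc12a1) of the thick ascending limb. The samples carry no genetic change, and the labels do not say whether each came from its own animal, so any p-value measures the spread between these samples only.

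Creatine is made in a pair of steps. Gatm, the mitochondrial arginine:glycine amidinotransferase, joins arginine and glycine into guanidinoacetate, largely in the kidney's proximal tubule, and the liver methylates that product to creatine. Ckb, the cytosolic brain-type creatine kinase, transfers phosphate between ATP and creatine, and in the kidney it is known from the salt-transporting cells of the thick ascending limb and distal tubule. Both genes therefore belong to the same metabolite but to different stretches of the nephron.

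In the GENCODE M21 annotation of GRCm38, Gatm lies on chromosome 2 from 122594467 to 122611303 on the minus strand, and its longest principal transcript has 9 exons. Ckb lies on chromosome 12 from 111669361 to 111672338, also on the minus strand, with 8 exons. A pair of processed pseudogenes, Ckb-ps1 and Ckb-ps2, is annotated on chromosome 17, and reads shared with them could not be separated from the counts. The 250 bases upstream of each RefSeq transcription start (GRCm38.p6) are shown because these genes were counted in different nephron segments. They run 5′ to 3′ along each gene's own strand, chr2:122611278-122611527 for Gatm and chr12:111672339-111672588 for Ckb, and capitals mark TATAAA (the core of a TATA box) as well as CCAAT (the CCAAT box), the latter on either strand.
Gatm: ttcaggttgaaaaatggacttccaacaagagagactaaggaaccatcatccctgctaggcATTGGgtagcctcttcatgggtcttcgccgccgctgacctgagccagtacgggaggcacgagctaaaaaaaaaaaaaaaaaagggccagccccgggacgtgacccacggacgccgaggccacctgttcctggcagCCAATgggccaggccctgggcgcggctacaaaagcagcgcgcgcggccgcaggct
Ckb: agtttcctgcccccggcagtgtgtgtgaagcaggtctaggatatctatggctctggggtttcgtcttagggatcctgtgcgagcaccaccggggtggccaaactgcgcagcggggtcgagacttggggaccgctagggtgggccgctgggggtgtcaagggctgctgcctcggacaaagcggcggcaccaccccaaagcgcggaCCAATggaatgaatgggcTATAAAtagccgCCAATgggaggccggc
TATAAA was found 28 bases upstream of the Ckb start and was not in the Gatm window, and 12.4% of 32851 RefSeq promoter windows of this length hold it on either strand. CCAAT was found 46 and 16 bases upstream in Ckb, and 55 and, on the other strand, 190 bases upstream in Gatm. It is held by 33.8% of windows. Other motifs searched on both strands were in neither window. The core of a GC box (GGGCGG) is held by 32.7% of windows. The site of estrogen-related receptors (AAGGTCA) is held by 4.08% of them. The start of a hepatocyte nuclear factor 1 site (GTTAAT) is held by 6.43% of them.

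Cells were summed per library within the 15 classes of the authors' annotation, and levels are in CPM, counts scaled to the panel total of the sum and by TMM factors, given as mean ± SD over 3 libraries. Libraries held 3051 to 4439 cells and 4819988 to 7635509 counts. Of 21958 cell barcodes, 196 occurred in more than 1 library. Class names are those of the annotation, and a class is a cluster of cells made from the same panel, so differences between classes are described and not tested. The class labelled OMCD principal held intercalated-cell markers (summed level 134840 CPM under vehicle, Aqp6 and Slc4a1 among them) beside principal-cell markers (91472 CPM), and its name is used here only as a label.

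Gatm was a proximal tubule transcript in these cells. Under vehicle, 98.9% ± 0.308 of a library's Gatm counts lay in the 3 proximal classes, and under furosemide 99.2% ± 0.376. Within the proximal tubule the gene was graded. Under vehicle its level was 436 ± 46.1 CPM in Proximal s1/s2 and 432 ± 31.6 CPM in Proximal s1/s2/s3, whose libraries overlapped, and 23.4 ± 6.71 CPM in Proximal s2/s3, 18.7-fold below the first. The corresponding fold under furosemide was 25.7.

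The low level in Proximal s2/s3 came with the deepest sums of the kidney. That class held 8887202 counts in all and 184 of them were Gatm, against 1232 of 2781546 in Proximal s1/s2. Per 1000 counts of 16 proximal markers, Gatm was counted 1.13 times in Proximal s1/s2, 1.01 times in Proximal s1/s2/s3 and 0.0323 times in Proximal s2/s3. The markers themselves summed to 402756, 451427 and 631118 CPM in these classes under vehicle, so this ratio also carries their higher level in Proximal s2/s3. In Proximal s2/s3 4.25% ± 0.0828 of vehicle cells had a Gatm count, against 26.7% ± 4.14 in Proximal s1/s2 and 39.0% ± 2.30 in Proximal s1/s2/s3. With each cell thinned to 500 counts, the shares were 1.90%, 15.8% and 17.1%, so the latter pair of classes lay closer together at equal depth.

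Outside the proximal classes Gatm was scarce. No Gatm count was found in AIC, BIC, CNT or the class named mystery cells, which by 3 counts of each total allows up to 7.08, 2.84, 1.31 and 18.4 CPM (counting error only). The other 8 classes held 1 to 10 Gatm counts each over all 6 libraries. The 10 counts of TAL were split 9 to 1 between vehicle and furosemide, too few for a fit. Per 1000 proximal-marker counts, 7 of these 8 classes held 0.0176 (Thin Limb) to 0.642 (CCD principal) Gatm counts, below the ratio of Proximal s1/s2. Immune was the exception, at 2.52 from 8 counts, 5 under vehicle and 3 under furosemide. Whether these few counts came from the cells of those classes was not tested.

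**Figure D1:**
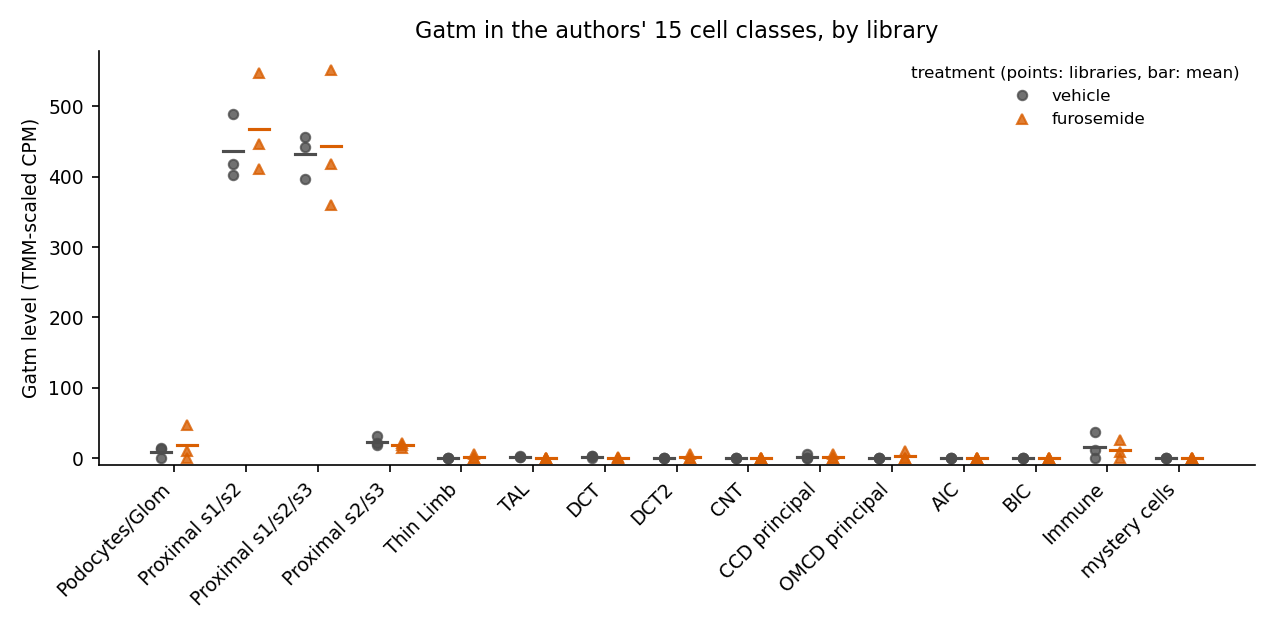
Gatm level in TMM-scaled CPM (vertical axis) in each of the authors' 15 classes (horizontal axis), with 1 point per library and a bar at the mean of 3 libraries, circles for vehicle and triangles for furosemide. Proximal s1/s2 and Proximal s1/s2/s3 stand at 360 to 552 CPM, Proximal s2/s3 at 14.2 to 31.0 CPM, and the treatments overlap in all 3.

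Gatm libraries of both treatments overlapped in each of the 3 classes where the gene could be fitted. Over all genes of those classes, 5% to 6.23% were higher without overlap (6.19% in Proximal s2/s3) and 4.47% to 5.36% lower (4.76% in Proximal s1/s2). In Proximal s1/s2 the vehicle libraries 1, 3 and 5 stood at 402, 418 and 489 CPM and the furosemide libraries 2, 4 and 6 at 446, 548 and 411 CPM. The log2 fold change of furosemide over vehicle was 0.10 ± 0.16 (SE of the edgeR fit, 3 libraries against 3). In Proximal s1/s2/s3 the vehicle libraries stood at 457, 396 and 442 CPM and the furosemide libraries at 418, 552 and 360 CPM, a log2 fold change of 0.04 ± 0.18. Furosemide library 4 was the highest and library 6 the lowest of the 6 in that class. In Proximal s2/s3 the values were 20.7, 18.4 and 31.0 CPM under vehicle and 14.2, 21.7 and 18.9 CPM under furosemide, a log2 fold change of -0.34 ± 0.33 that rests on 88 and 96 counts. In that class the furosemide libraries became the lower ones without overlap in 3 alternatives. The log2 fold change was then -0.55 without library 4, -0.53 without the cells in the top 5% of totals and -0.77 with equal cell numbers. Summed over the proximal classes, Gatm stood at 222 ± 21.3 CPM under vehicle and 195 ± 11.3 CPM under furosemide (log2 fold change -0.18 ± 0.12, libraries overlapping). That sum also carries the mix of classes. Proximal s2/s3, low in Gatm, held 1915 vehicle and 2560 furosemide cells. Proximal s1/s2 held 1523 and 1443, and Proximal s1/s2/s3 1460 and 1313. That these libraries overlap does not show that Gatm was alike in both treatments.

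Ckb had a different distribution. Under vehicle it was highest in TAL at 13637 ± 2166 CPM and in DCT at 10622 ± 922 CPM, whose libraries overlapped. After a 4.45-fold step down came Immune (2385 ± 308 CPM), AIC (2325 ± 1111 CPM) and Podocytes/Glom (2199 ± 369 CPM), which overlapped with one another. OMCD principal (1519 ± 180 CPM), DCT2 (1122 ± 55.2 CPM) and BIC (557 ± 79.4 CPM) followed, each clear of its neighbours. CCD principal (223 ± 21.4 CPM) and Thin Limb (212 ± 57.5 CPM) overlapped, CNT stood at 96.8 ± 34.3 CPM, and the 3 proximal classes at 23.0 to 57.6 CPM.

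Along the distal nephron the vehicle level therefore descended in steps, 9.47-fold from DCT to DCT2 and 11.6-fold from DCT2 to CNT. Under furosemide the first step was 3.59-fold and the second 15.2-fold. The order at the top changed as well: DCT stood above TAL without overlap under furosemide, at a TAL to DCT ratio of 0.595 against 1.28 under vehicle, and DCT2 moved from the 7th to the 3rd place. In the proximal classes 3.66% to 4.53% of cells had a Ckb count (mean per treatment, 500-count thinned 1.20% to 2.35%). The 3 proximal classes held 3.18 to 5.38 Ckb counts per 1000 counts of 14 TAL and DCT markers, against 24.1 in TAL and 38.3 in DCT. The ratio was 21.6 in Thin Limb, 21.9 in DCT2 and 28.1 in CCD principal. It was 11.7 in CNT, 51.5 in BIC, 151 in AIC and, from 8 counts, 24.0 in mystery cells. Whether the Ckb counts of a class came from its own cells was not tested. In OMCD principal, Podocytes/Glom and Immune the same ratio was 411, 450 and 685.

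**Figure D2:**
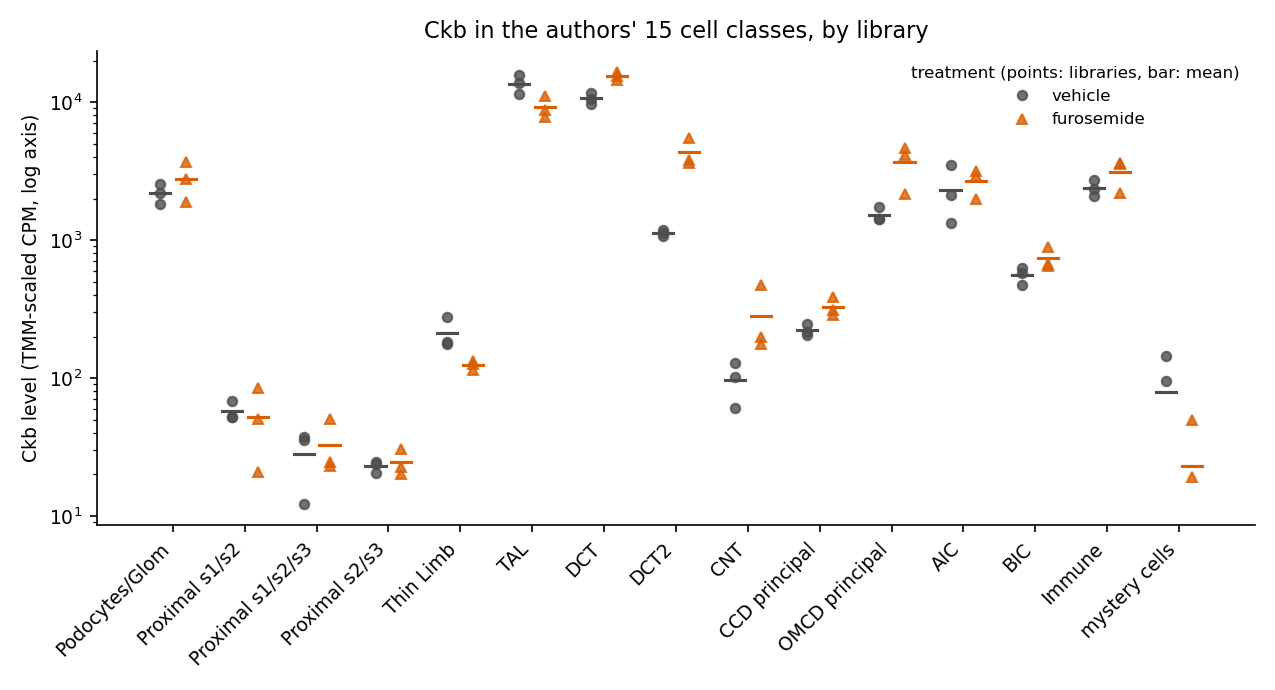
Ckb level in TMM-scaled CPM (vertical log axis) in each of the authors' 15 classes (horizontal axis), with 1 point per library and a bar at the mean of 3 libraries, circles for vehicle and triangles for furosemide. In DCT2 the vehicle libraries sit at 1068 to 1178 CPM and the furosemide libraries at 3637 to 5492 CPM, while in TAL the furosemide libraries are the lower ones. In the class named mystery cells 1 library of each treatment is at 0 and is not drawn on the log axis.

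Under furosemide Ckb was higher in 6 of the 14 classes fitted and lower in 2 of them, counting classes whose libraries did not overlap between treatments. The higher ones were DCT, DCT2, CNT, CCD principal, OMCD principal and BIC, and the lower ones TAL and Thin Limb. Over all genes and classes fitted, 8.43% of the 3724 pairs were higher and 8.62% lower in that sense. This contrast chose the gene, so its counts and fold changes are a description and no test of Ckb is drawn from them. By edgeR's quasi-likelihood test with Benjamini-Hochberg adjustment over the genes of a class, Ckb was past 0.05 as higher in 2 classes, DCT and DCT2, and 0.752% of all pairs were (1.45% in either direction). DCT lost that call whenever a single library was left out, and DCT2 kept it.

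DCT2, the late distal convoluted tubule that shares Slc12a3 with DCT and calcium-handling genes with the connecting tubule, had the largest fold change of Ckb among the 14 classes fitted. Vehicle libraries 1, 3 and 5 stood at 1178, 1068 and 1120 CPM, and furosemide libraries 2, 4 and 6 at 3818, 3637 and 5492 CPM. The lowest furosemide library was thus far above the highest vehicle library. The means were 1122 ± 55.2 and 4316 ± 1023 CPM and the log2 fold change was 1.94 ± 0.19. It ranged from 1.73 to 2.10 when a single library was left out. In this class 9.48% of the genes tested were higher without overlap, and 1.42% passed the edgeR test.

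The higher DCT2 level was spread over many cells. With cells thinned to 500 counts, 31.1%, 24.4% and 22.5% of DCT2 cells had a Ckb count in the vehicle libraries (1, 3, 5), and 67.6%, 62.0% and 74.3% had one in those given furosemide (2, 4, 6). Before thinning the mean shares were 49.6% ± 6.60 and 82.0% ± 7.07, at median depths of 1742 and 1563 counts per cell. The proximal classes had mean thinned shares of at most 2.35%. Cells with 5 or more counts after thinning made up 4.34% ± 2.72 of vehicle and 18.0% ± 3.21 of furosemide DCT2 cells.

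The leading markers of DCT2 did not pass the edgeR test. Slc12a3, the thiazide-sensitive sodium-chloride cotransporter, was at 68397 CPM under vehicle and 65918 CPM under furosemide in DCT2 (log2 fold change -0.05 ± 0.14, edgeR adjusted p = 0.925). S100g, the calcium-binding protein calbindin-D9k, was at 370900 and 290232 CPM (-0.35 ± 0.28, adjusted p = 0.679). Summed DCT markers ranged from 137801 to 146762 CPM under vehicle and from 115118 to 139989 CPM under furosemide, with 0 of 6 tested markers called and Pvalb at 0. The summed TAL markers, 29055 to 36394 and 24930 to 33022 CPM, were not higher under furosemide either. Summed intercalated-cell markers in DCT2 were lower without overlap, at 9184 to 10703 CPM under vehicle and 6999.6 to 8518 CPM under furosemide, with 0 of 6 tested markers called. Their part in the Ckb difference was not tested.

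DCT, the early distal convoluted tubule, was also higher in Ckb. Vehicle libraries 1, 3 and 5 stood at 10551, 11578 and 9738 CPM and furosemide libraries 2, 4 and 6 at 15558, 14419 and 16442 CPM. The groups did not overlap, and the log2 fold change was 0.54 ± 0.13. Here 10.2% of genes were higher in that way and 4.73% passed the edgeR test. The median DCT cell, thinned to 500 counts, held 4 to 5 Ckb counts in the vehicle libraries and 7 in each furosemide library. In DCT the stress gene Hspa1a fell by 1.20 on the log2 scale (edgeR adjusted p = 0.0113), and Slc12a1 fell by 1.23 (adjusted p = 0.0113). Of the tested markers, 2 of 7 of the TAL list, Slc12a1 among them, and 1 of 7 dissociation and stress genes were called lower. Summed intercalated-cell markers were higher without overlap, 3793 to 4092 CPM under vehicle and 4457 to 4860 CPM under furosemide, with 0 of 3 tested markers called. The part of any of these in the Ckb difference was not tested.

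CNT, the connecting tubule, had little Ckb under either treatment. Vehicle libraries 1, 3 and 5 stood at 129, 101 and 60.5 CPM, and furosemide libraries 2, 4 and 6 at 177, 476 and 198 CPM. The groups did not overlap, but library 4 stood apart, and the log2 fold change of 1.56 ± 0.44 became 0.94 without it. In CNT 12.5% of genes were higher without overlap and 5.08% passed the edgeR test. The thinned share of CNT cells with a Ckb count was 5.26% to 5.80% in the vehicle libraries and 7.51%, 17.9% and 8.33% in furosemide libraries 2, 4 and 6.

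In CNT 13 of the 256 genes tested passed the edgeR test (5.08%). Of the tested segment markers, 1 of 6 DCT and 2 of 6 connecting tubule markers passed as higher. As lower, 1 of 5 TAL and 1 of 5 principal-cell markers passed. Slc12a3, of the DCT list, rose in CNT from 76.4 to 380 CPM (log2 fold change 2.28 ± 0.36, edgeR adjusted p = 0.0122). Calb1, calbindin-D28k, rose from 13363 to 47360 CPM (1.82 ± 0.27, adjusted p = 0.0122), and Slc8a1, a sodium-calcium exchanger, by 1.80 (adjusted p = 0.0157). S100g did not pass (0.22 ± 0.27, adjusted p = 0.747). Fxyd4, a regulator of the sodium pump in the collecting duct, fell by 0.70 (adjusted p = 0.0389), and Slc12a1 by 1.52 (adjusted p = 0.0389). Cd8a, of the immune list, rose by 1.15 (adjusted p = 0.0122), while that list's sums overlapped. The summed DCT markers in CNT ranged from 9188 to 15633 CPM under vehicle and from 17054 to 18959 CPM under furosemide. The part of these markers in the Ckb difference was not tested.

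To describe Ckb without the class borders, DCT, DCT2 and CNT cells were also sorted by the share of Slc12a3 in the sum of Slc12a3 and S100g counts. Cells with a share of 0.9 or more stood at 11219 ± 972 CPM under vehicle and 16169 ± 1851 CPM under furosemide (log2 fold change 0.53 ± 0.15). Between 0.5 and 0.9 they stood at 7476 ± 2313 and 13288 ± 2349 CPM (0.82 ± 0.27). The contrast was widest between 0.1 and 0.5, mostly DCT2 cells, at 1354 ± 395 and 4652 ± 620 CPM (1.76 ± 0.22). Below 0.1, where 1116 of 1224 cells were CNT, the levels were 156 ± 69.6 and 437 ± 113 CPM (1.47 ± 0.35). Furosemide libraries were higher without overlap in all 4 bins, and the share of all genes doing so was not counted there. The bins largely follow the classes, as 1526 of 1539 cells of the top bin and 334 of 405 of the next were DCT. They are therefore not independent of the class results above. Of the DCT2 cells themselves, 59.9% ± 14.2 under vehicle and 62.5% ± 6.96 under furosemide lay between 0.1 and 0.5, with overlapping libraries. Between 0.5 and 0.9, where Ckb was higher, lay 11.4% ± 0.956 and 16.3% ± 1.21 of them, without overlap. The part of this shift in the DCT2 difference was not tested, and the bin from 0.1 to 0.5, where 299 of 334 cells were DCT2, gives the value at a narrower range of shares. Slc12a3, 1 of the 2 genes that set the bins, itself rose in CNT under furosemide. The same bin therefore need not hold like cells in both treatments.

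**Figure D3:**
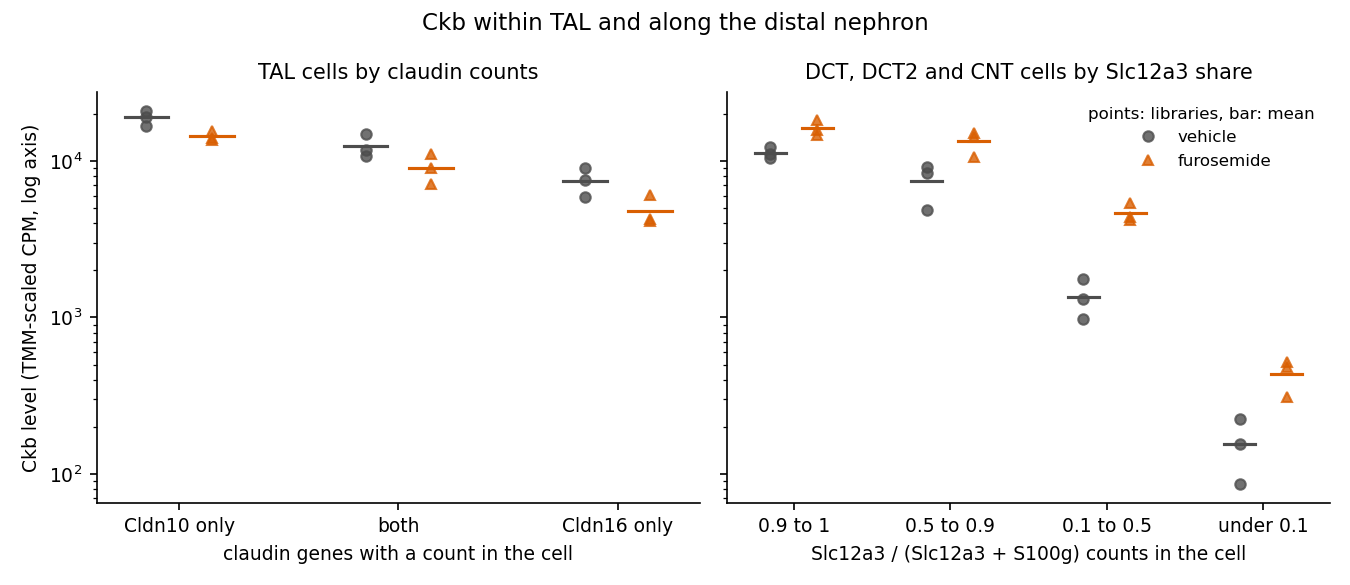
Ckb level in TMM-scaled CPM (vertical log axis) in TAL cells split by which claudin genes they had a count of (left) and in DCT, DCT2 and CNT cells binned by their Slc12a3 share (right), with 1 point per library and a bar at the mean of 3 libraries, circles for vehicle and triangles for furosemide. Ckb descends from left to right in both panels, furosemide means are lower on the left and higher on the right, and the widest gap is between 0.1 and 0.5, at 1354 and 4652 CPM.

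TAL, the thick ascending limb and the segment on which furosemide acts, went the other way. Vehicle libraries 1, 3 and 5 stood at 13795, 15720 and 11396 CPM and furosemide libraries 2, 4 and 6 at 7792, 8763 and 11074 CPM. The groups did not overlap, though furosemide library 6 came close to vehicle library 5, and the log2 fold change was -0.57 ± 0.20. In TAL 11% of genes were lower without overlap, and 4.73% passed the edgeR test in either direction. Summed thin limb markers in TAL were lower without overlap as well, 9577 to 10626 CPM under vehicle and 6203 to 7799 CPM under furosemide. Of 3 tested thin limb markers 0 were called. Of the other lists, 2 of 8 TAL and 1 of 4 connecting tubule markers were called higher, and 1 of 15 proximal markers lower. The part of these markers in the Ckb difference was not tested. Nearly every TAL cell kept a Ckb count, 98.8% ± 0.617 under vehicle and 97.6% ± 0.443 under furosemide. Thinned to 500 counts, 63.6% ± 5.04 of vehicle and 42.2% ± 4.58 of furosemide TAL cells had 5 or more.

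TAL cells differ by the paracellular claudin they make, Cldn10 for sodium or Cldn16 for calcium and magnesium, and Ckb differed between them. Under vehicle, cells with counts of Cldn10 alone stood at 18902 ± 2095 CPM, cells with both at 12392 ± 2119 CPM and cells with Cldn16 alone at 7445 ± 1565 CPM. Cells with Cldn10 alone made up 32.5% ± 3.95 of TAL cells under vehicle and 14.2% ± 1.97 under furosemide, while Cldn16 rose in TAL from 3029 to 6303 CPM (log2 fold change 1.06 ± 0.20, edgeR adjusted p = 0.0426).

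Ckb was lower under furosemide within each subset of TAL. The log2 fold change was -0.39 ± 0.17 in cells with Cldn10 alone, where libraries did not overlap. It was -0.45 ± 0.21 in cells with both and -0.64 ± 0.24 in cells with Cldn16 alone, where they did. The share of all genes without overlap was not counted in these subsets. Weighting the subsets of every library by the vehicle mix gave a furosemide to vehicle ratio of 0.668 in CPM without TMM scaling, against 0.626 with the observed mix. Claudin counts in a cell also depend on its depth, which was 1233 to 1713 counts at the median of these subsets. Cldn16 itself rose in TAL under furosemide, so the same subset need not hold like cells in both treatments. The weighted and observed ratios therefore cannot separate the mix of cells from the level of Ckb within them.

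**Figure D4:**
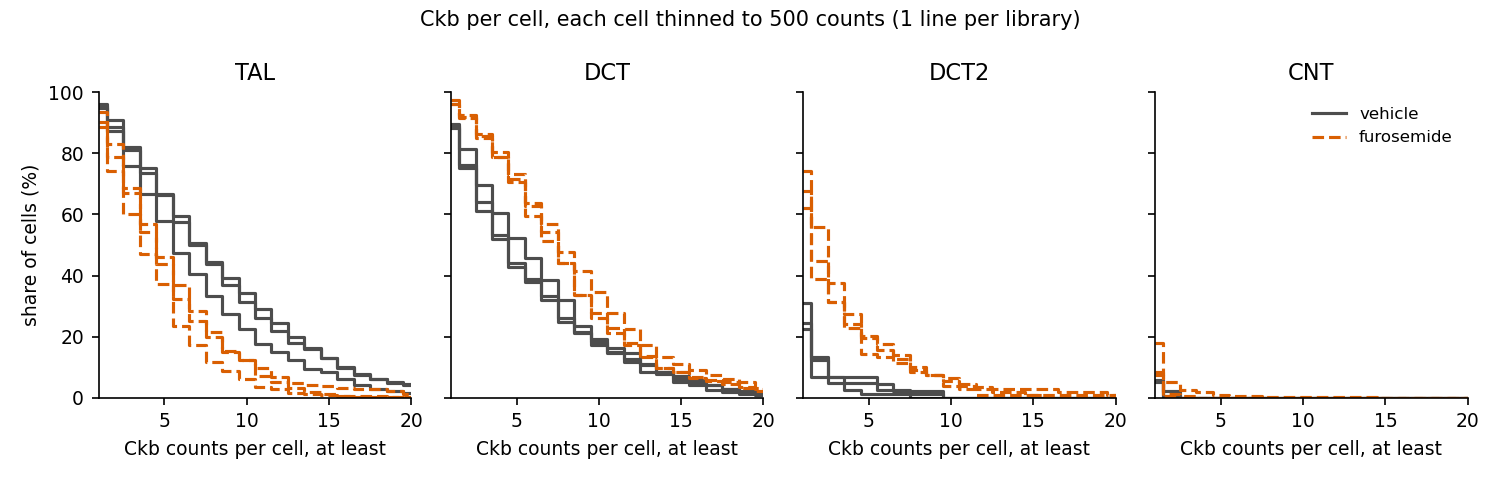
Share of cells in percent (vertical axis) holding at least the number of Ckb counts on the horizontal axis, each cell thinned to 500 counts, in TAL, DCT, DCT2 and CNT, with 1 line per library, solid for vehicle and dashed for furosemide. The dashed lines lie below the solid ones in TAL over most of the range and above them at low counts in DCT and DCT2, where 62.0% to 74.3% of furosemide and 22.5% to 31.1% of vehicle DCT2 cells have at least 1 count.

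Collecting duct classes had smaller or less even differences. In OMCD principal the vehicle libraries 1, 3 and 5 stood at 1411, 1420 and 1727 CPM and the furosemide libraries 2, 4 and 6 at 4164, 4673 and 2168 CPM. Libraries 2 and 4 stood well above library 6, which was itself above all vehicle libraries, and the log2 fold change was 1.27 ± 0.30, in a class where 6.97% of genes were higher without overlap. After thinning to 500 counts the libraries overlapped, at a log2 fold change of 1.15. Immune markers in this class summed to 620 to 2458 CPM under vehicle and 85.5 to 197 CPM under furosemide, with Cd4 at 0 and 0 of 2 tested markers called. The summed dissociation and stress genes were lower without overlap too, 105821 to 108180 CPM under vehicle and 80645 to 95653 CPM under furosemide, with 0 of 7 called. The part of either list in the Ckb difference was not tested.

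In CCD principal, the cortical principal cells, the vehicle libraries stood at 216, 247 and 206 CPM and the furosemide libraries at 311, 284 and 385 CPM. The furosemide libraries were the higher ones without overlap, as were those of 12.1% of genes there, and the log2 fold change was 0.54 ± 0.22. Markers of other segments were higher in CCD principal in the same way. The summed DCT markers stood at 1825 to 1997 CPM under vehicle and 2726 to 3735 CPM under furosemide, with Pvalb at 0, and the connecting tubule markers at 14681 to 19513 and 27677 to 35406 CPM. The podocyte and glomerular markers stood at 18.8 to 54.3 and 97.6 to 243 CPM. Of the tested markers of these lists 0 of 6, 0 of 5 and 0 of 1 were called, and their part in the Ckb difference was not tested. CCD principal held 28.1 Ckb counts per 1000 TAL and DCT marker counts, against 24.1 in TAL, and the source of its Ckb counts was not tested.

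BIC, the type B intercalated cells, stood at 469, 624 and 578 CPM under vehicle and 894, 672 and 648 CPM under furosemide (0.41 ± 0.20). Of the genes in BIC 11% were higher without overlap, and the Ckb libraries overlapped when scaled by library size alone or with cells thinned to 500 counts. In BIC 3 marker sums also separated the treatments, with 0 markers called in each. Proximal markers were lower under furosemide (4818 to 5965 against 2228 to 4413 CPM), as were dissociation and stress genes (127979 to 145508 against 106258 to 120599 CPM). Intercalated-cell markers were higher, 181440 to 185706 CPM under vehicle and 200951 to 227778 CPM under furosemide. The part of these in the Ckb difference was not tested. AIC, the type A intercalated cells, overlapped, with a log2 fold change of 0.21 ± 0.37 and vehicle libraries spread from 1326 to 3521 CPM.

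Thin Limb was the other class with lower Ckb. It held 21.6 Ckb counts per 1000 TAL and DCT marker counts, against 24.1 in TAL, and the source of its Ckb counts was not tested. Vehicle libraries 1, 3 and 5 stood at 176, 279 and 183 CPM and furosemide libraries 2, 4 and 6 at 115, 132 and 126 CPM, from 97 and 40 counts in all. The groups did not overlap and the log2 fold change was -0.76 ± 0.33, but with cells thinned to 500 counts it was -0.39 and they did. In Thin Limb 13.2% of genes were lower without overlap and 1.88% passed the edgeR test. Ppp1r1a, listed as a DCT marker, fell by 2.01 in Thin Limb (edgeR adjusted p = 0.0243), the 1 call among 5 tested DCT markers, whose sum was 3171 to 4545 CPM under vehicle and 2190 to 3064 CPM under furosemide. The dissociation and stress genes summed to 210663 to 230856 and 171607 to 200992 CPM, with 0 of 7 called. The part of either list in the Ckb difference was not tested. Immune, Podocytes/Glom and the 3 proximal classes overlapped between treatments, with log2 fold changes from -0.17 to 0.39. Of these, Proximal s2/s3 went from 0.10 to 0.86 without overlap when cells were thinned to 500 counts.

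**Figure D5:**
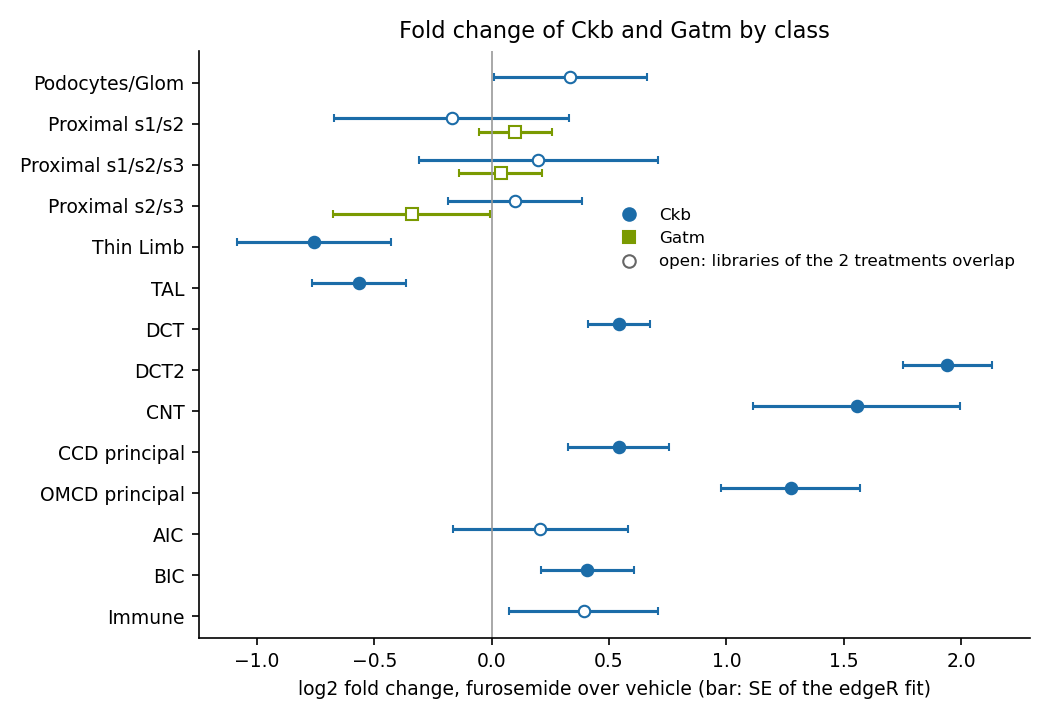
Log2 fold change of furosemide over vehicle (horizontal axis) by class (vertical axis) for Ckb (circles) and Gatm (squares, 3 proximal classes), with bars for the SE of the edgeR fit. Filled symbols mark classes whose libraries do not overlap between treatments: Ckb is right of 0 in 6 of them, up to 1.94 in DCT2, and left of 0 in TAL and Thin Limb, while all Gatm symbols are open.

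The distribution of Ckb counts over the classes also differed between treatments. TAL held 79.3% ± 1.69 of a library's Ckb counts under vehicle and 40.9% ± 8.62 under furosemide. DCT held 16.3% ± 2.08 and 45.7% ± 6.63, and DCT2 0.435% ± 0.132 and 5.12% ± 1.67. These shares also carry the number of cells sampled in each class, 2624 vehicle and 1498 furosemide cells for TAL and 804 and 1097 for DCT, and so do the sums over all cells. Over all cells of a library Ckb stood at 4426 ± 674 and 3147 ± 213 CPM, a log2 fold change of -0.49 ± 0.15 that has the sign of TAL and not of the 6 classes above.

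The genes most like Gatm in level over the 15 classes, by Pearson correlation of log2 vehicle CPM with 1 CPM added, were Cftr (r = 0.94), Bhmt (0.93), Igfbp4 (0.93), Spp2 (0.92) and Spink1 (0.91), and each was highest in Proximal s1/s2. Cftr and Bhmt were low even there, at 65.1 and 32.9 CPM, against 20.2 and 16.5 CPM in Proximal s2/s3. Igfbp4, Spp2 and Spink1 stood at 14191, 33644 and 9052 CPM, against 3881, 1029 and 3645 CPM in Proximal s2/s3. Bhmt, betaine-homocysteine methyltransferase, belongs to methyl donor metabolism. Those most like Ckb were Nfatc2 (0.82), Adora2b (0.80), Fbxo32 (0.79), Nr0b2 (0.79) and Gpx6 (0.77). Under vehicle Nfatc2 was highest in Immune (225 CPM, 144 in TAL) and Fbxo32 in BIC (182 CPM, 17.8 in TAL). Adora2b was highest in DCT, and Nr0b2 and Gpx6 in TAL. In fold change, over the classes where both were fitted, Ckb was most like Gpx6 (0.93 over 8 classes), Lpl (0.74 over 11), and Cops5, Atp6ap2 and Tfrc (0.73, 0.72 and 0.72 over 14). These are the top ranks among 244 genes, and classes share libraries, so they are descriptions.

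Gpx6, a glutathione peroxidase, and Tfrc, the transferrin receptor, had the sign of Ckb's fold change in DCT2, TAL and DCT. That was not so in every class. In Proximal s2/s3, where Ckb was at 0.10, Gpx6 was at -0.49 and Tfrc at 0.62. In Proximal s1/s2, where Ckb was at -0.17, Gpx6 was at -0.32 and Tfrc at 0.53. In DCT2 Gpx6 rose from 846 to 2415 CPM (log2 fold change 1.52 ± 0.25, edgeR adjusted p = 0.00652) and Tfrc from 883 to 2973 CPM (1.75 ± 0.24, adjusted p = 0.00207). In TAL Gpx6 fell by 0.94 (adjusted p = 0.0426), as did Lpl, lipoprotein lipase, by 1.09 (adjusted p = 0.0177), whereas Tfrc had a log2 fold change of -0.70 ± 0.28 and did not pass. In DCT Tfrc rose by 1.30 (adjusted p = 0.0113), and Gpx6 was at 0.69 ± 0.20 (adjusted p = 0.103).

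The panel allowed few other comparisons within the pathway. Of 31 genes listed for arginine, glycine and methyl donor metabolism it held 4, Odc1, Glyat, Inmt and Slc6a19. Bhmt, named above, is in the panel but was not on that list. Of 53 pairs of such a gene and a class tested, 1 passed (1.89%), near the 1.45% of all pairs. This was Inmt, an N-methyltransferase that uses S-adenosylmethionine, rising in DCT from 1573 to 3386 CPM (log2 fold change 1.10 ± 0.16, edgeR adjusted p = 0.00597). Of 22 genes of energy sensing and mitochondria it held 0.

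Pumps are the main users of ATP in these segments, and the panel held 9 of 21 pump genes and regulators. Of 106 gene and class pairs tested, 1 passed as higher and 3 as lower (3.77% in all). Over all genes and classes 1.45% of pairs passed in either direction and 0.752% as higher. The 3 lower pairs were Fxyd2 in TAL and in Thin Limb, and Fxyd4 in CNT. Atp1b1, the beta subunit of the sodium pump, did not pass, with log2 fold changes of 0.09 ± 0.16 in TAL and 0.26 ± 0.15 in DCT. Fxyd2, the pump's gamma subunit, fell by 1.26 in TAL, from 1797 to 753 CPM (edgeR adjusted p = 0.0061), and by 3.76 in Thin Limb (adjusted p = 0.0243). Atp6v1c2, a subunit of the proton pump, rose by 0.98 in DCT (adjusted p = 0.0227). The list's median log2 fold change was -0.02 in TAL and 0.24 in DCT, against 0.00 and -0.02 over all genes tested there.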

How the data were processed

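The members and gene lists were chosen with earlier results of these data known. The deposited table holds whole-number counts per cell and gene. Bowtie2 2.2.9 is named, without its role, per the submitters' processing notes. Whether a count is a read or a molecule, and the genome build, are not given in the sources used here. Per the file names, the authors removed doublets and a mixed cluster and equalised cell numbers, here 11077 per treatment. Classes, library and treatment come from their annotation. Counts were summed per library and class (at least 10 cells, smallest 12) and fitted per class with edgeR 4.0.16 in R 4.3.3 (TMM, filterByExpr, robust quasi-likelihood), with Benjamini-Hochberg adjustment over the genes of the class. Levels are TMM-scaled CPM. Thinned values draw 500 counts per cell and leave out 1283 shallower cells. Alternatives used DESeq2 1.42.0, limma 3.58.1 voom, other scalings, filters, cell sets and single libraries left out. The claudin and Slc12a3 splits were chosen after seeing the data. Named genes were Gatm and Ckb, called members of the lists, the 5 genes most like each member and the leading or called markers of classes. The fits were tested on simulated data. A single member of the pump list is counted with that list, but its own values are not reported here.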

Additional observations from a re-analysis of the deposited data

Results flagged for a closer look

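Ckb moved in opposite directions in different classes: every furosemide library was above every vehicle library in 6 classes and below in 2. Over all genes and classes fitted, 8.43% of 3724 pairs were higher and 8.62% lower in that way. The differences of Ckb log2 fold changes between the higher and the lower classes were not tested. Against TAL, the log2 fold change was higher by 2.51 in DCT2, 2.12 in CNT, 1.84 in OMCD principal, 1.11 in both DCT (1.109) and CCD principal (1.108), and 0.974 in BIC. Against Thin Limb, it was higher by 2.70 in DCT2, 2.31 in CNT, 2.03 in OMCD principal, 1.30 in both DCT (1.299) and CCD principal (1.298), and 1.16 in BIC. The classes of a library share that library, and all were compared with the same vehicle samples.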

How the results depend on the processing

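Ckb kept its sign in TAL, DCT, DCT2, CNT, CCD principal, OMCD principal, BIC and Thin Limb under every alternative run. With equal cell numbers the log2 fold change moved to 0.93 in CCD principal and 2.39 in DCT2, and Gatm in Proximal s2/s3 moved to -0.77. In Thin Limb Ckb moved to -0.39 with cells thinned to 500 counts. In Proximal s2/s3 it moved from 0.10 to 0.86 with thinning, 0.35 with equal cell numbers and -0.15 without library 4. Classes with all furosemide libraries lower in Gatm numbered 0, and 1 in 4 of 17 alternatives: Proximal s2/s3 with equal cell numbers, without the top 5% of totals or without library 4, and TAL with no filter. Classes with all furosemide libraries lower in Ckb numbered 2, and 1 with equal cell numbers or thinning (2 to 3 with a library left out). Those higher in Ckb numbered 6, and 4 to 6 otherwise (6 to 8 with a library left out). Shares over all genes were not counted for these alternatives. Classes where Ckb passed edgeR's adjusted threshold numbered 2. They numbered 1 with RLE factors, library size alone, totals without the top 10 genes, counts per cell, no filter or equal cell numbers, 4 with DESeq2, and 1 to 2 with a library left out. DCT2 passed in each of these, DCT was lost with any single library left out, and OMCD principal passed without library 6. No paired analysis was possible because the library numbers in the files carry none of the replicate numbers of the sample titles. Depth limits Gatm outside the proximal classes and Ckb in CNT, Thin Limb and proximal cells.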

Other observations

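In the authors' second clustering, Ckb had 1102 ± 79.9 CPM under vehicle and 2993 ± 873 CPM under furosemide in the cluster named AIC (log2 fold change 1.44 ± 0.25, libraries not overlapping). Of its 256 cells, 241 carry the class label OMCD principal. In the cluster AIC sub2, of whose 460 cells 303 are in class AIC, Ckb stood at 2784 ± 924 and 5025 ± 953 CPM (0.85 ± 0.30, not overlapping). Class AIC itself overlapped. For clusters of the second clustering, the share of all genes without overlap was not counted. The small cluster DCT sub2 (243 cells) had the highest Ckb of all clusters, 15580 ± 2922 and 18566 ± 1649 CPM, and its libraries overlapped (0.25 ± 0.18). Gatm in the cluster Proximal sub1 (531 cells) was 164 ± 53.3 and 141 ± 68.0 CPM, below the 518 ± 50.9 and 533 ± 125 CPM of Proximal s1/s2 sub2, although both clusters lie in the class Proximal s1/s2/s3. In the cluster Prox sub3, of whose 318 cells 316 are in class Proximal s1/s2, Gatm stood at 258 ± 57.7 and 167 ± 36.5 CPM, lower under furosemide without overlap but from 4 to 9 counts per library, too few for a fit.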
